A study of Mus musculus with 68 samples.

Results

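The genes described here are p53, its regulators and its direct transcriptional targets, 31 mouse genes in all. They were chosen by symbol from knowledge of the pathway, with Cdkn1a left out. Earlier results of these data were known when the list was made, so a shift of the 31 is a description. All 31 were found among the 27179 gene identifiers of the count table. RNA sequencing measured expression in cultured mesenchymal stromal cells, the fibroblast-like cells that can form bone, cartilage and fat, taken from mouse long bones. Heterozygous cultures (Het) came from mice with 1 floxed and 1 intact allele of Ezh2, written Ezh2fl/+:Prrx-1-Cre, and control cultures (WT) from Ezh2+/+:Prrx-1-Cre mice, whose Ezh2 alleles are both intact. All 4 groups therefore carried the Prrx-1-Cre transgene, which makes Cre recombinase in the limb mesenchyme. Het 12M had 6 biological samples (S1, S9, S11, S15, S16 and S17) and Het 3M had 3 (S8, S10 and S14), from mice aged 12 and 3 months. The WT groups held 4 each, S2, S6, S7 and S13 in WT 12M and S3, S4, S5 and S12 in WT 3M, from mice of the same ages. The series text speaks of 3 samples per group, and all 17 that the labels list were used. The labels do not say that each sample came from its own mouse, so every p-value below measures the spread between these cultures. The study compared the genotypes at each age and the ages within each genotype.

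The transcription factor p53, encoded by Trp53 in the mouse, is held at a low level in unstressed cells because the ubiquitin ligase Mdm2 marks it for destruction and Mdm4 blocks its activity. DNA damage, ribosomal stress and other insults stabilise the protein, which then switches on genes for growth arrest, DNA repair, metabolic adjustment and cell death. Mdm2 is itself a target, which closes a negative feedback loop. Because control acts mostly on the protein, the level of Trp53 mRNA says little about p53 activity, and the mRNA of its targets is the usual readout. In bone, p53 is known to restrain osteoblast differentiation, and Ezh2, the methyltransferase of Polycomb repressive complex 2, silences several genes of growth arrest.

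The p53 protein binds a pair of half-sites, each called the p53 half-site and each 10 bases long. RefSeq promoter sequences (build GRCm38.p6), running from 250 bases before to 50 bases after a transcription start, were found for 23 of the 31 genes. A perfect half-site lay in the promoters of 10 of the 23 genes (43.5%), against 9.55% of 26994 genes with promoters of the same length. A pair of half-sites no more than 1 base apart, with no more than 3 mismatches in all and an intact centre in each, lay in 5 of the 23 (21.7%), namely Aen, Bax, Bbc3, Tigar and Trp53, against 1.23% of all genes. A half-site reads the same way on both strands, so both were covered by 1 search. The sites of 5 genes whose levels follow are shown to let a reader see the motif in its place. They comprise the pairs of Bax (chr7:45467039-45467139, minus strand), Bbc3 (chr7:16309446-16309545, plus strand) and Trp53 (chr11:69580244-69580343, plus strand). The perfect half-sites are those of Mdm2 (chr10:117710895-117710984, minus strand) and of Ccng1 (chr11:40755422-40755511, minus strand). Each is written 5′ to 3′ on the strand of its gene, with the matched bases in capitals.

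Bax: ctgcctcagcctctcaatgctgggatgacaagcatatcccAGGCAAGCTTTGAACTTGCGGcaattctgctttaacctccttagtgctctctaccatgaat
Bbc3: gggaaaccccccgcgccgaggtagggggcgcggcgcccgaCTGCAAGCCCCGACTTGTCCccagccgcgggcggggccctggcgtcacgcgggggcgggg
Trp53: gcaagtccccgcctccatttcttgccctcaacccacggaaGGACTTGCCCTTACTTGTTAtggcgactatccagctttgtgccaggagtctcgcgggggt
Mdm2: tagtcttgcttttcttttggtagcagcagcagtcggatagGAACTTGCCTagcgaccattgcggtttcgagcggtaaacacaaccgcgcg
Ccng1: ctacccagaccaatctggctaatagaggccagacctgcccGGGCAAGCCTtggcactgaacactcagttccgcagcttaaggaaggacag

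In Bax the pair has 2 mismatches and a spacer of 1 base, and in Bbc3 and Trp53 it has 3 mismatches and a spacer of 0. Counted from the transcription start, the pair begins at position -201 in Bax, -97 in Bbc3 and -75 in Trp53, and the half-site begins at -186 in Mdm2 and -185 in Ccng1. In Ccng1 the 10 bases just before the capitals depart from a half-site only at 1 base of the centre. The rule of an intact centre left them out of the pairs. The beginning of the Trp53 stretch belongs to an exon of the divergent gene Wrap53. A match in this window is a description of its letters, and binding was not measured here. Bases outside the promoter window were not searched, so sites elsewhere in these genes are not covered.

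Depth ran from 13687876 to 28597221 counts per sample, and levels are given as CPM, counts scaled to a common library size, after the TMM correction for composition. All 14 mesenchymal markers looked for, Prrx1 and Col1a1 among them, were detected in all 17 samples, with a summed level of 8969 to 34120 CPM. Ezh2 itself ran from 8.62 to 25.2 CPM in Het 12M, 8.47 to 12.8 CPM in Het 3M, 7.64 to 35.7 CPM in WT 12M and 9.17 to 14.3 CPM in WT 3M. It did not differ between genotypes beyond its error, at a log2 difference of -0.16 ± 0.36 (SE) for Het 12M against WT 12M and -0.19 ± 0.43 for Het 3M against WT 3M (edgeR adjusted p = 0.924 and 1). Gene-level counts include exons outside the floxed part. Markers of other cells stood out in Het 12M S9, with 40920 CPM over 13 myeloid markers against at most 2781 CPM elsewhere, and in WT 12M S6, with 1309 CPM over 10 Schwann and neural crest markers against at most 114.9 CPM elsewhere. Het 12M S15 had the lowest mesenchymal sum. Xist and Y-linked transcripts (CPM before TMM scaling, Y-linked as a mean of 4 genes) went against the labelled sex in 3 WT 12M libraries. Xist stood at 374.6 and 307.8 CPM in the male-labelled S2 and S13, where Y-linked genes were at 0 and 0.136 CPM, and at 0.195 CPM in the female-labelled S6, where Y-linked genes were at 28.8 CPM. The female-labelled WT 12M S7 held both signals, Xist at 78.8 CPM and Y-linked genes at 33.7 CPM. In the 13 libraries of the other groups the signal that goes with the label prevailed and the other was at most 0.785 CPM. The name WT 12M below therefore means the libraries that carry that label. By label, Het 12M held 5 female and 1 male samples, Het 3M held 1 female and 2 male, and each WT group held 2 female and 2 male. Labelled sex was thus uneven between the groups, and sex was not a term of the main fit.

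All 31 genes were expressed above the filter on low counts. Levels were set per kilobase of exon for a rough comparison between genes. The length joins the exons of the annotated transcripts of a gene, and the annotation behind the counts is not given. The highest was Phlda3, an inhibitor of the survival kinase Akt, with a median of 332.3 CPM per kilobase over the 17 samples. Ccng1, a cyclin that recruits a phosphatase to Mdm2, followed with 220.8 CPM per kilobase, and Bax, which opens the outer mitochondrial membrane in apoptosis, with 156.7. Trp53 stood eighth, at 38.4 CPM per kilobase, below Mdm2 at 63.02. The lowest were Mdm4 at 1.85 and Ddb2, a sensor of ultraviolet damage, at 1.23 CPM per kilobase. Mdm4 has 10859 bases of exon by this count, and its median before division by length was 20.04 CPM. Ddb2 shares 26.7% of its exon bases with Acp2 on the opposite strand, and Plk3 shares 3.53% with Tctex1d4. The library kit did not mark strand, so reads in those stretches cannot be assigned to 1 gene.

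**Figure D1:**
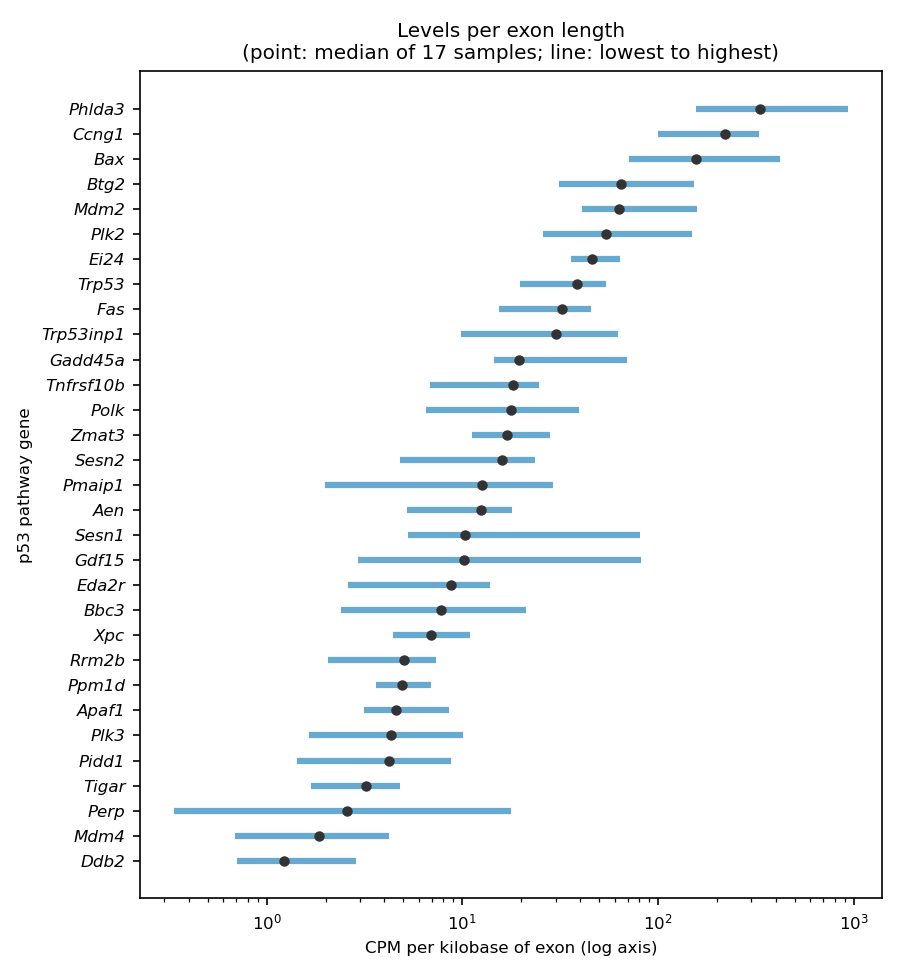
Level of each of the 31 p53 pathway genes (rows) in CPM per kilobase of exon on a log axis, with the median of the 17 samples as a point and the lowest to the highest sample as a line. Phlda3 is highest with a median of 332.3, Ddb2 is lowest at 1.23, and the line of Perp is the widest.

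The genes also differed in how far they varied between cultures of 1 group. Perp, a tetraspan membrane protein of desmosomes and p53-dependent apoptosis, had the largest within-group SD, 1.69 on the log2 CPM scale, and Gdf15, a secreted stress cytokine, had 1.27. Ei24, an endoplasmic reticulum protein of autophagy, and Zmat3, an RNA-binding splicing regulator, had the smallest, 0.22 and 0.27.

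Across samples the WT 12M libraries stood low. When each gene was centred on its mean over all 17 samples, the median deviation (log2) of the 31 genes ran from -0.27 in S15 to 0.23 in S11 among the Het 12M samples, with -0.09, -0.09, 0.03 and 0.14 in S1, S9, S16 and S17. It was 0.17, 0.12 and -0.07 in Het 3M S8, S10 and S14. In WT 12M S2, S6, S7 and S13 it was -0.22, -0.32, -0.28 and -0.15, against 0.23, 0.09, 0.14 and 0.40 in WT 3M S3, S4, S5 and S12, so all 4 WT 12M samples lay below all WT 3M and Het 3M samples. Het 12M S15 lay within the WT 12M range, and its median over all tested genes was itself -0.12, while that of the other 16 samples lay between -0.02 and 0.06. Because WT 12M enters the comparison of genotypes at 12 months, the comparison of ages in WT and the interaction, the results of these 3 share that group and are given side by side, not as support for each other.

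**Figure D2:**
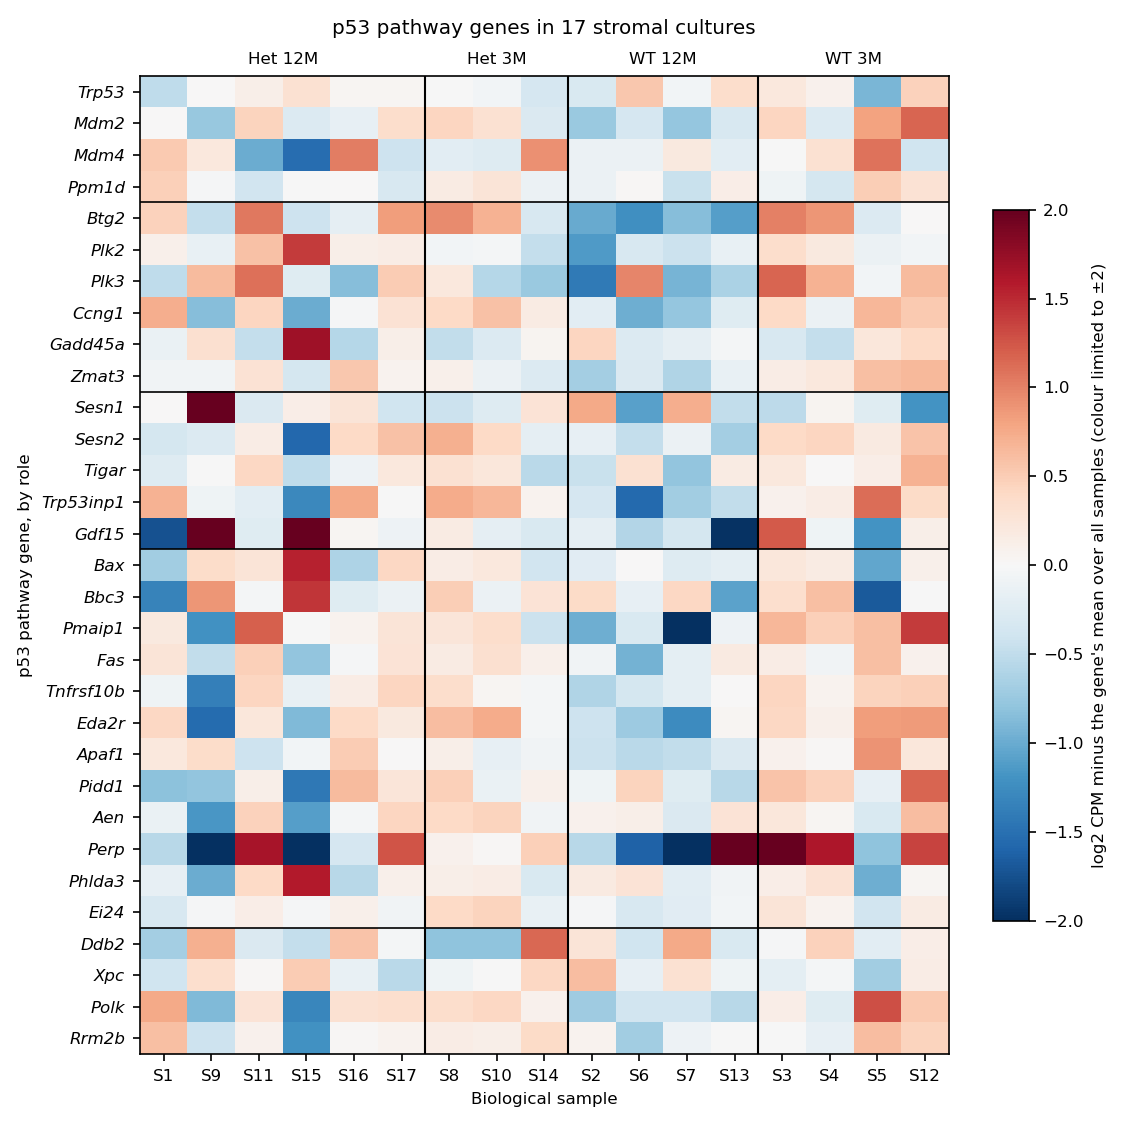
Each square is the log2 CPM of a p53 pathway gene (rows, grouped by role from p53 and its regulators at the top to DNA repair at the bottom) in a biological sample (columns, by group) minus the gene's mean over the 17 samples. Blue squares prevail in the 4 WT 12M columns, whose median deviations run from -0.32 to -0.15. Dark red squares include Sesn1 and Gdf15 in Het 12M S9, Gdf15 in Het 12M S15, and Perp in WT 12M S13 and WT 3M S3.

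The 12-month comparison set the cultures labelled Het against those labelled WT from older mice, and no gene of the pathway passed its threshold. The fit put 25 of the 31 genes higher and 6 lower in Het 12M, with a median log2 difference of 0.35, against a median of 0.05 over the 14897 genes tested, 55.7% of which were fitted higher. By edgeR's quasi-likelihood test 0 of the 31 had an adjusted p under 0.05, as had 0% of all genes tested. At an unadjusted p under 0.05, 7 were higher (Btg2, Plk2, Apaf1, Gdf15, Zmat3, Trp53inp1 and Pmaip1), where 3.44% of all genes were higher, and 0 were lower, where 4.93% of all genes were lower. The 7 became 4 without WT 12M S7 (2.78% of all genes higher) and 11 without Het 12M S9 (3.1%). With the labelled sex as a term 10 were higher (3.29% of all genes) and 0 were lower (5.41%). The groups did not overlap for 2 genes that were higher, Btg2 and Plk2, where this held for 0.47% of all genes, and for 0 that were lower (0.853% of all genes). DESeq2 called Btg2 alone, where it called 0.723% of its genes, and limma voom with sample quality weights called Btg2, Plk2, Zmat3 and Pmaip1 as higher, where it called 1.15%.

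Trp53 mRNA differed by less than its error. It stood at 49.1, 71.8 and 86.1 CPM (lowest, median and highest) in Het 12M, against 56.2, 101.6, 67.1 and 88.5 CPM in WT 12M S2, S6, S7 and S13. The ranges overlapped widely, and the log2 difference was -0.15 ± 0.24 (SE, edgeR adjusted p = 0.888). Mdm2 stood at 130.8, 209.8 and 302.2 CPM in Het 12M, against 132.1, 174.7, 129.2 and 178.1 CPM in WT 12M. Of the 6 Het 12M samples 5 lay above all 4 of WT 12M and S9 lay within their range, and the difference was 0.52 ± 0.28 (adjusted p = 0.644). Mdm4 at 0.11 ± 0.43 and Ppm1d, the phosphatase that ends the p53 response, at 0.07 ± 0.22 differed by less than their errors.

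All 6 genes of growth arrest were fitted higher in Het 12M, their median being 0.55 (log2). Btg2, an antiproliferative cofactor of mRNA deadenylation that stops cells in the first gap phase, had 144.2, 227.4 and 418.7 CPM (lowest, median and highest) in Het 12M, against 100.2, 85.9, 111.4 and 94.1 CPM in WT 12M S2, S6, S7 and S13. Every Het 12M sample lay above every WT 12M sample, at 254.7 ± 115.7 CPM in Het 12M (SD, n = 6) and 97.9 ± 10.8 CPM in WT 12M (SD, n = 4), where samples varied little. Btg2 is also known as an immediate-early gene, induced by growth factors without p53. The log2 difference was 1.38 ± 0.37 (95% confidence interval 0.60 to 2.15), with an adjusted p of 0.243 by edgeR and 0.0299 by DESeq2. Plk2, a polo-like kinase of the centriole and of checkpoint recovery, had 143.2, 173.2 and 415.9 CPM in Het 12M, against 72.3, 127.1, 117.6 and 143.1 CPM in WT 12M. The groups were separated by a narrow margin, between Het 12M S9 and WT 12M S13, and the difference was 0.93 ± 0.29 (edgeR adjusted p = 0.366), or 0.63 without S15, the highest sample. Zmat3 had 108.8, 139.6 and 201.7 CPM in Het 12M, against 86.9, 113.4, 92.1 and 125.5 CPM in WT 12M, where only Het 12M S15 lay under the highest WT 12M sample, and the difference was 0.51 ± 0.20 (adjusted p = 0.496). Ccng1 at 0.58 ± 0.32, Plk3 at 0.46 ± 0.47 and Gadd45a, a DNA damage sensor that binds cell-cycle kinases, at 0.38 ± 0.38 had wider errors relative to their size.

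The 5 genes of metabolism and autophagy were fitted higher as well, with a median of 0.76. Gdf15 had the largest value, 2.05 ± 0.78 (adjusted p = 0.486), and it rested on 2 cultures. Its level was 6.39, 21.0 and 150.6 CPM (lowest, median and highest) in Het 12M, against 18.95, 14.4, 16.9 and 5.42 CPM in WT 12M S2, S6, S7 and S13. Het 12M S15 and S9, at 150.6 and 128.6 CPM, stood far above the other 4, of which the highest was 22.0 CPM, and the difference was 1.45 without S15 and 0.28 without S9, S15 and WT 12M S6. Trp53inp1, an autophagy and p53 cofactor, was at 0.82 ± 0.36. The antioxidant sestrins Sesn1 and Sesn2 were at 0.76 ± 0.59 and 0.31 ± 0.31, and Tigar, which lowers glycolytic flux by breaking down fructose-2,6-bisphosphate, at 0.12 ± 0.27.

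Of the 12 genes of cell death 9 were fitted higher, with a median of 0.27. Apaf1, the scaffold of the apoptosome, had 28.4, 41.0 and 53.8 CPM (lowest, median and highest) in Het 12M, against 28.0, 26.0, 26.7 and 30.9 CPM in WT 12M. All Het 12M samples but S11 lay above WT 12M, and the difference was 0.57 ± 0.21 (adjusted p = 0.445). Pmaip1, which encodes the BH3-only protein Noxa, was at 0.96 ± 0.43, with 5.45 CPM in WT 12M S7 as its lowest value. Bax was at 0.58 ± 0.37 and Bbc3, which encodes the BH3-only protein Puma, at 0.35 ± 0.49, and neither passed. The death receptor genes Fas, Tnfrsf10b and Eda2r were at 0.23 ± 0.26, 0.28 ± 0.26 and 0.48 ± 0.36. The 3 fitted lower were Perp at -0.71 ± 0.96, the nuclease gene Aen at -0.18 ± 0.30 and Pidd1, a scaffold that activates caspase-2, at -0.11 ± 0.37. The 4 genes of DNA repair and nucleotide supply were split evenly, from -0.19 ± 0.24 for Xpc, which recognises bulky lesions, to 0.58 ± 0.36 for Polk, a polymerase that copies past them.

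**Figure D3:**
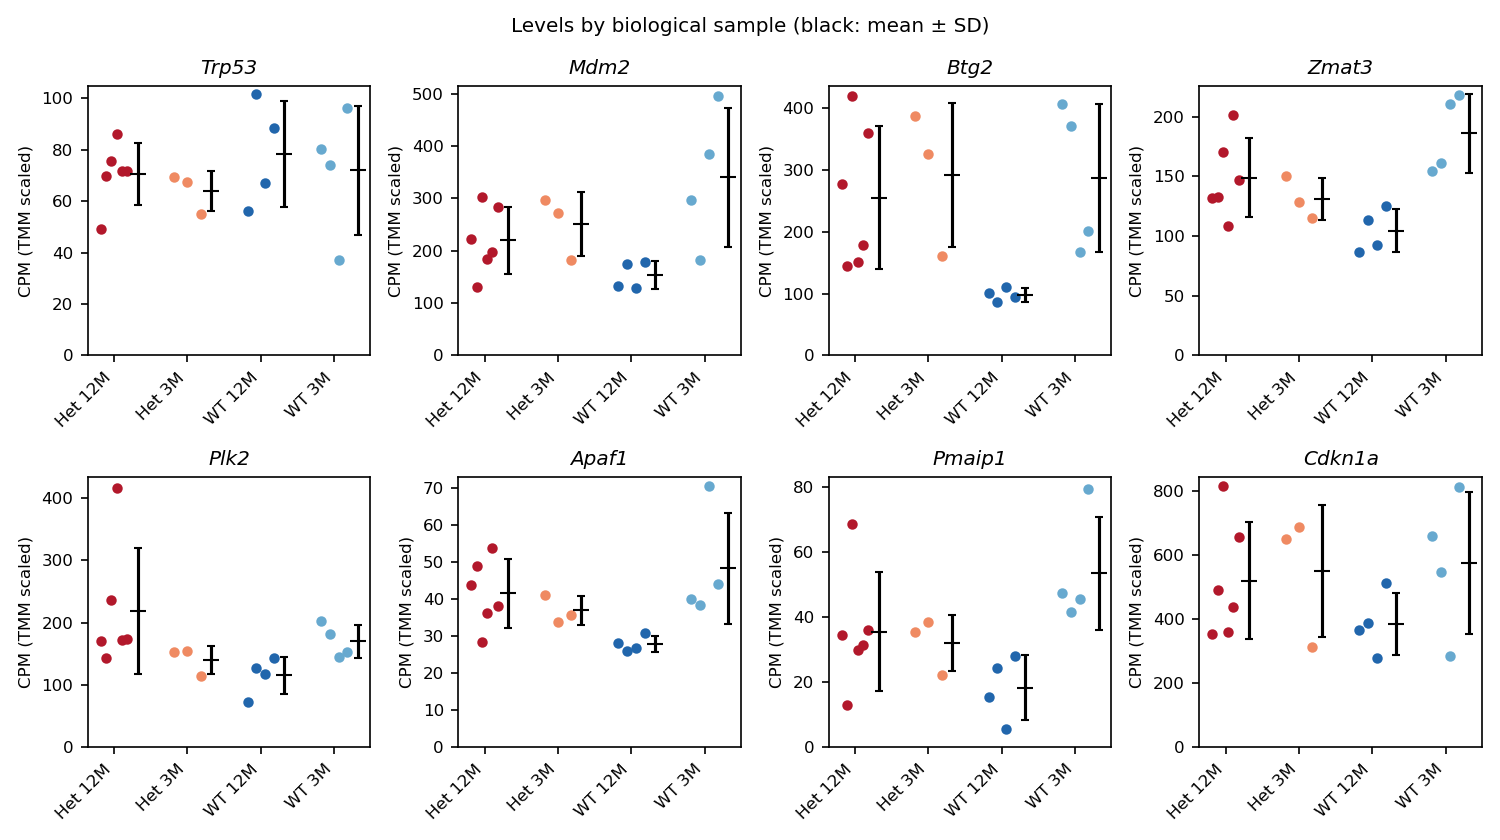
Level in TMM-scaled CPM (vertical axis, from 0) of Trp53, 6 of its targets and Cdkn1a in each biological sample, by group on the horizontal axis, with the mean ± SD in black. For Btg2 the 4 WT 12M samples sit between 85.9 and 111.4 CPM, under all Het 12M, Het 3M and WT 3M samples, while Trp53 overlaps between all groups.

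Other gene groups were fitted apart as well. In Het 12M against WT 12M the fit put 15 of 16 immediate-early genes higher, at a median of 0.70 (log2), and 10 of 10 genes of the ATF4 and CHOP stress response, at 1.13. Their summed levels ran from 1437 to 3376 CPM in Het 12M against 1200 to 1737 CPM in WT 12M for the immediate-early genes, and from 444.7 to 863.7 CPM in Het 12M against 281.9 to 449.1 CPM in WT 12M for the stress genes. Of 16 proliferation genes 15 were fitted lower, at a median of -0.49, with sums of 195.5 to 647.5 CPM in Het 12M and 228.2 to 1146 CPM in WT 12M. All 13 myeloid markers were fitted higher, at a median of 2.17, with sums of 35.1 to 40920 CPM in Het 12M and 47.3 to 2781 CPM in WT 12M. In S15, the myeloid markers Ptprc, Adgre1 and Cd52 were at 0 counts. All 9 tested Schwann and neural crest markers were fitted lower, at a median of -4.25, with sums of 21.8 to 99.8 CPM in Het 12M and 29.6 to 1309 CPM in WT 12M. Of 14 mesenchymal markers 10 were fitted lower, at -0.34, with sums of 8969 to 31560 CPM in Het 12M and 19070 to 34120 CPM in WT 12M, as were 6 of 9 endothelial markers, at -0.56, with sums of 6.74 to 22.0 CPM in Het 12M and 6.87 to 23.1 CPM in WT 12M. In these bulk cultures fewer cells of a type and less RNA per cell cannot be told apart. The part of these groups in the p53 results was not tested.

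Without S9, S15 and WT 12M S6 the median of the 31 genes was 0.29 and Btg2 stood at 1.60 in Het 12M against WT 12M. At an unadjusted p under 0.05, 12 of the 31 were then higher, where 5.38% of all genes were, and 1 was lower, where 6.56% were. In the same fit the immediate-early genes were still 15 of 16 higher, at a median of 0.50, and the stress genes 10 of 10 higher, at 1.16. The myeloid markers were 12 of 13 lower, at -0.51, and the Schwann and neural crest markers 7 of 8 lower, at -0.66. Of the proliferation genes 12 of 16 were lower, at -0.24.

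In cultures from young mice the fitted differences lay nearer 0. Het 3M S8 and S10 were more alike than any other pair of cultures and entered as separate samples. In Het 3M against WT 3M the fit put 10 of the 31 genes higher and 21 lower, with a median log2 difference of -0.09 against -0.02 over all genes, of which 47.5% were fitted higher. By edgeR 0 passed, as did 0% of all genes. At an unadjusted p under 0.05, 0 were higher (0.812% of all genes) and 1, Zmat3, was lower (0.792% of all genes), a count that was 0 in 8 of the 17 fits that left out 1 sample. The groups did not overlap for 0 genes that were higher (3.21% of all genes) and for 2 that were lower, Zmat3 and Pmaip1 (3.57% of all genes). DESeq2 called 0 members and 0% of its genes. Voom called Trp53inp1 as higher and Plk3, Perp and Ddb2 as lower, where it called 8.67% of all genes, so its share among the 31 is read against that background. For Ddb2 the tools differed in direction, at -0.80 ± 0.24 by voom and 0.05 ± 0.52 by edgeR. Trp53inp1 was at 0.53 ± 0.16 by voom and 0.025 ± 0.41 by edgeR, while both tools fitted Plk3 and Perp lower. Voom weights ran from 0.70 (S14) to 8.88 (S8) in Het 3M and from 0.31 (S5) to 7.32 (S3) in WT 3M.

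Zmat3 had 150.2, 128.4 and 115.2 CPM in Het 3M S8, S10 and S14, against 154.2, 161.0, 210.3 and 218.3 CPM in WT 3M S3, S4, S5 and S12. The nearest samples, S8 and S3, were close, and the log2 difference was -0.50 ± 0.23 (edgeR adjusted p = 1). Pmaip1 had 35.5, 38.5 and 22.2 CPM in Het 3M, against 47.5, 41.7, 45.5 and 79.3 CPM in WT 3M, and the difference of -0.74 ± 0.51 was -0.48 without S12, the highest WT 3M sample. Plk3, a stress-activated polo-like kinase, had 12.2, 7.07 and 6.26 CPM in Het 3M, against 23.9, 17.3, 10.2 and 16.4 CPM in WT 3M, where Het 3M S8 lay above WT 3M S5, and the difference was -0.99 ± 0.57. Apaf1 was at -0.39 ± 0.24, and at -0.14 without WT 3M S5, whose 70.7 CPM was the highest value of that gene. Mdm2 was at -0.44 ± 0.33, and at -0.19 without WT 3M S12. Trp53 had 69.5, 67.5 and 55.2 CPM in Het 3M, against 80.4, 74.2, 37.0 and 96.1 CPM in WT 3M, and differed by -0.17 ± 0.29. For each of the last 5 genes the adjusted p was 1. Myeloid markers were fitted higher in 8 of 13 here, at a median of 0.13, with sums of 151.8 to 1331 CPM in Het 3M and 150.2 to 1795 CPM in WT 3M, and 3 of 10 stress response genes were fitted higher.

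The age comparison within Het cultures showed no direction common to the pathway. In Het 12M against Het 3M 13 of the 31 genes were fitted higher and 18 lower, at a median log2 difference of -0.11 against 0.07 over all genes, of which 57.7% were fitted higher. By edgeR 0 passed, as did 0% of all genes, and at an unadjusted p under 0.05 there were 0 higher (1.56% of all genes) and 0 lower (1.72% of all genes). No gene of the pathway was without overlap in either direction, where 0.49% of all genes were higher and 1.42% lower without overlap. DESeq2 and voom called 0 members, and 0.00682% and 0.00671% of all genes.

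Of the 5 genes with the smallest p in this comparison, 4 had values that depended on S9 or S15. Gdf15 was at 1.51 ± 0.84, with 24.2, 19.0 and 17.5 CPM in Het 3M S8, S10 and S14 beside the Het 12M values above, and at -0.28 without S9, S15 and WT 12M S6. Sesn1 had 36.7, 50.8 and 320.5 CPM (lowest, median and highest) in Het 12M, against 35.7, 40.3 and 58.4 CPM in Het 3M. Its highest value was that of S9, the culture with myeloid markers, and the difference of 1.05 ± 0.66 was 0.06 without S9. Plk2 at 0.64 ± 0.31 was 0.34 without S15, and Gadd45a at 0.61 ± 0.42 was 0.10 without S15, whose 84.6 CPM stood against at most 32.7 CPM in the other Het 12M samples. Ei24, the least variable gene, was at -0.29 ± 0.18. The edgeR adjusted p of these 5 was 0.946. Trp53 at 0.14 ± 0.27 and Mdm2 at -0.19 ± 0.30 differed by less than their errors (adjusted p = 0.957 and 0.949). Beside these, all 13 myeloid markers were fitted higher in Het 12M, at a median of 2.83 and with sums of 35.1 to 40920 CPM in Het 12M against 151.8 to 1331 CPM in Het 3M, and all 16 proliferation genes were fitted higher at 0.67. Of 9 endothelial markers 8 were fitted lower, at -2.01, with sums of 6.74 to 22.0 CPM in Het 12M against 10.1 to 53.5 CPM in Het 3M. Schwann and neural crest markers were lower in 8 of 9, at -0.54, mesenchymal markers in 8 of 14, at -0.27, and immediate-early genes were higher in 14 of 16, at 0.39. Stress response genes were higher in 6 of 10, at 0.03. Without S9, S15 and WT 12M S6 the myeloid markers were 12 of 13 higher, at 0.55, and the proliferation genes 16 of 16 higher, at 0.29. The endothelial markers were 8 of 9 lower, at -1.68, and the Schwann and neural crest markers 7 of 8 lower, at -0.41. The immediate-early genes were 11 of 16 higher, at 0.08, and the stress genes 8 of 10 higher, at 0.13. The part of these groups in the values above was not tested.

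Within WT cultures most genes of the pathway were fitted lower at the older age, with 0 past the edgeR threshold. In WT 12M, set against WT 3M, the fit put 6 of the 31 genes higher and 25 lower, with a median log2 difference of -0.42 against 0.04 over all genes, of which 53.8% were fitted higher. By edgeR 0 passed, as did 0% of all genes, with a smallest adjusted p of 0.436. At an unadjusted p under 0.05, 0 were higher (4.67% of all genes) and 11 were lower (3.55% of all genes). The groups did not overlap for 0 genes that were higher (4.03% of all genes) and for 12 that were lower (4.07% of all genes). DESeq2 called Btg2 and Zmat3 as lower, where it called 0.361% of its genes, and voom called 13 members, all lower, where it called 10.1% of all genes.

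Btg2, again, led the comparison. It had 100.2, 85.9, 111.4 and 94.1 CPM in WT 12M S2, S6, S7 and S13, against 406.7, 371.3, 166.6 and 201.8 CPM in WT 3M S3, S4, S5 and S12. All WT 12M samples lay under all WT 3M samples, which themselves split into a higher and a lower pair, and the log2 difference was -1.55 ± 0.39 (adjusted p = 0.436 by edgeR and 0.0372 by DESeq2). Zmat3 had 86.9, 113.4, 92.1 and 125.5 CPM in WT 12M, against 154.2, 161.0, 210.3 and 218.3 CPM in WT 3M, a difference of -0.83 ± 0.21 (0.436 by edgeR and 0.0372 by DESeq2, adjusted p). Mdm2, whose transcript reports on the feedback loop, had 132.1, 174.7, 129.2 and 178.1 CPM in WT 12M, against 297.1, 182.2, 385.2 and 496.0 CPM in WT 3M. Here WT 3M S4 lay just above the highest WT 12M sample, and the difference was -1.15 ± 0.31 (edgeR adjusted p = 0.481).

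Among genes of cell death, 11 of 12 were fitted lower in WT 12M. Pmaip1 had 15.3, 24.3, 5.45 and 28.0 CPM in WT 12M, against 47.5, 41.7, 45.5 and 79.3 CPM in WT 3M, with no overlap, and differed by -1.55 ± 0.47 (edgeR adjusted p = 0.552). Apaf1 had 28.0, 26.0, 26.7 and 30.9 CPM in WT 12M, against 40.1, 38.4, 70.7 and 44.2 CPM in WT 3M, and differed by -0.79 ± 0.22 (adjusted p = 0.523). Both groups of Apaf1 were tight apart from WT 3M S5, without which the difference was -0.55. Eda2r, a receptor of the tumour necrosis factor family, stood at -1.10 ± 0.39 and Tnfrsf10b, the mouse TRAIL receptor, at -0.64 ± 0.29. Bax at -0.12 ± 0.40 and Bbc3 at -0.02 ± 0.53 were near 0. Phlda3, at 0.11 ± 0.44, was the gene of this role that was not fitted lower.

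In the remaining roles, Trp53inp1 at -1.20 ± 0.39, Polk at -1.04 ± 0.39, Ccng1 at -0.91 ± 0.35 and Sesn2 at -0.74 ± 0.34 also had no overlap between WT 12M and WT 3M. Ccng1 had 596.8, 353.8, 405.1 and 587.3 CPM in WT 12M, against 913.9, 643.4, 1103 and 996.6 CPM in WT 3M. The margin between the groups was again set by WT 3M S4. Plk2, at -0.56 ± 0.31, was without overlap by a narrow margin, with at most 143.1 CPM in WT 12M (S13) against at least 145.0 CPM in WT 3M (S5). Trp53 itself, at 0.12 ± 0.26 (adjusted p = 0.883), overlapped between the ages and was fitted at -0.04 without WT 12M S6. Beside Trp53 and Phlda3, the genes fitted higher in WT 12M were Sesn1, Xpc, Ddb2 and Gadd45a, at 0.59 ± 0.64, 0.36 ± 0.26, 0.05 ± 0.48 and 0.01 ± 0.41.

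**Figure D4:**
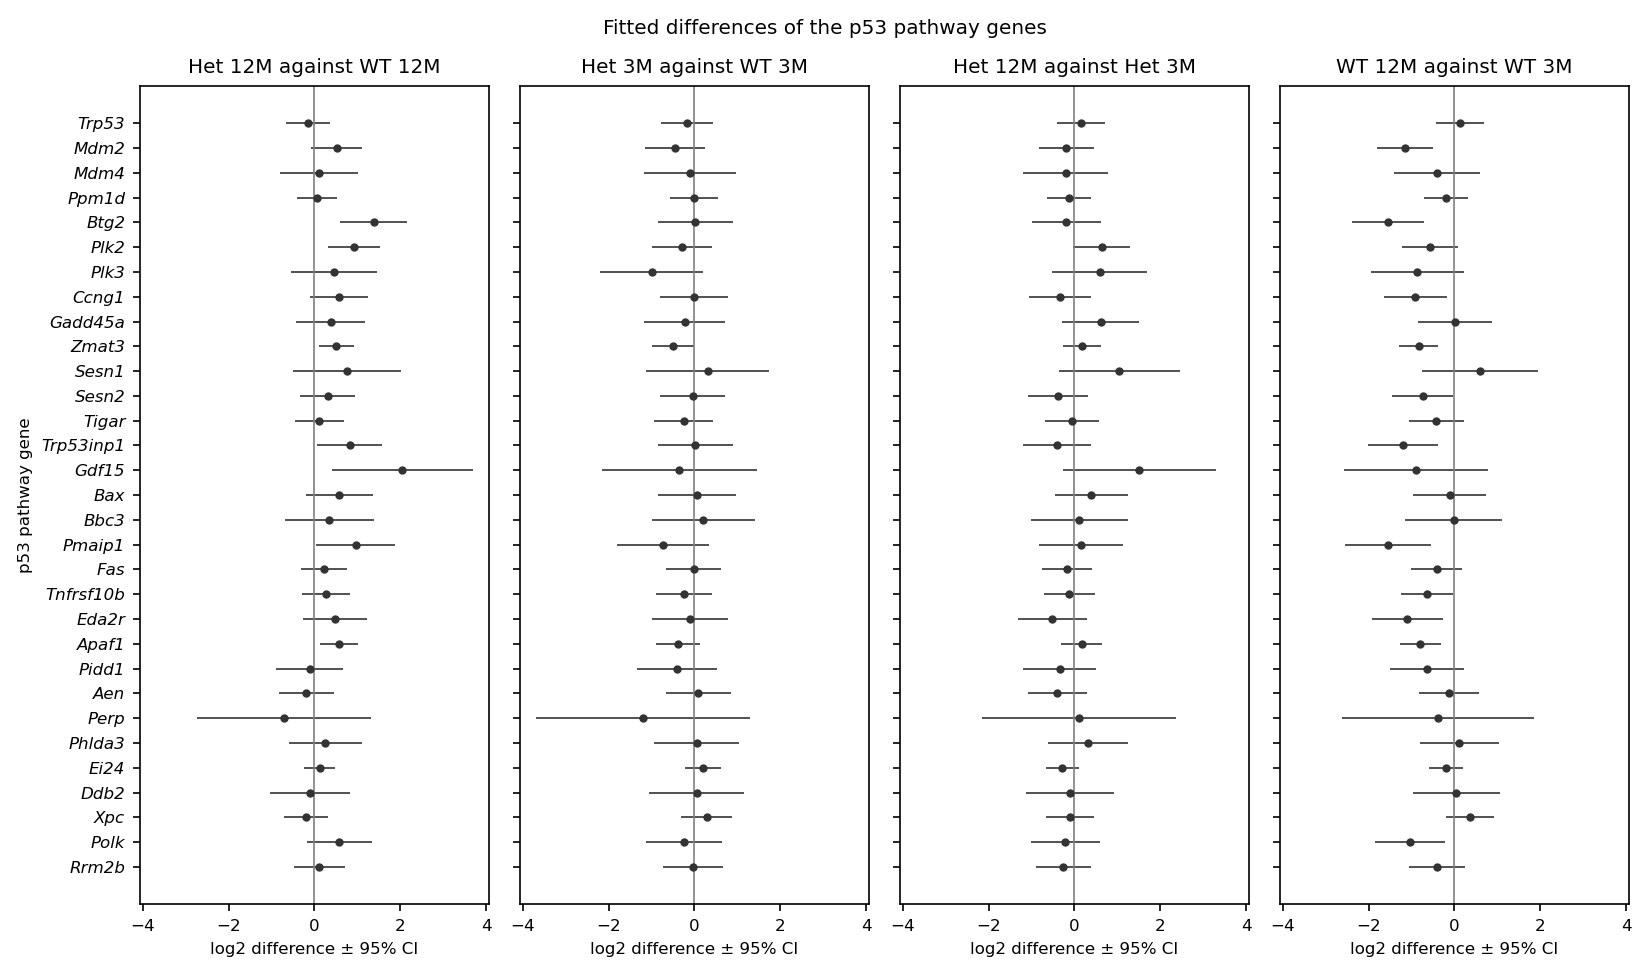
Fitted log2 difference (horizontal axis) with its 95% confidence interval for each p53 pathway gene (rows, in order of role) in the 4 pairwise comparisons (panels). In WT 12M against WT 3M 25 of 31 points lie under 0, in Het 12M against WT 12M 25 lie above 0, and the intervals of Perp and Gdf15 are the widest.

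Other gene groups were fitted apart between the ages of WT cultures too. All 10 stress response genes were fitted lower in WT 12M, at a median of -1.31 and with sums of 281.9 to 449.1 CPM in WT 12M against 519.8 to 861.8 CPM in WT 3M, which did not overlap. Of the 16 immediate-early genes 15 were fitted lower, at a median of -0.53, and all 16 proliferation genes were fitted higher, at 1.27, with sums of 228.2 to 1146 CPM in WT 12M against 204.5 to 409.3 CPM in WT 3M. All 9 tested Schwann and neural crest markers were fitted higher, at 3.17, with sums of 29.6 to 1309 CPM in WT 12M against 32.3 to 110.4 CPM in WT 3M. The 1309 CPM was that of S6. Of 13 myeloid markers 12 were fitted higher, at 0.62, with sums of 47.3 to 2781 CPM in WT 12M against 150.2 to 1795 CPM in WT 3M. Of 9 endothelial markers 8 were fitted lower, at -1.83, with sums of 6.87 to 23.1 CPM in WT 12M against 8.30 to 89.9 CPM in WT 3M, and 8 of 14 mesenchymal markers were fitted higher, at 0.12. Without S9, S15 and S6, 4 of 8 Schwann and neural crest markers were fitted higher, at a median of -0.09, and 13 of 13 myeloid markers, at 1.03. The medians were then -1.24 for the stress genes, -0.71 for the immediate-early genes, 0.71 for the proliferation genes and -1.49 for the endothelial markers. The part of these groups in the p53 results was not tested. Without S6, which had the most Schwann and proliferation transcripts, the median of the 31 genes was -0.61, against -0.42 with it. With a term for the level of Y-linked genes it was -0.57, and with the labelled sex -0.56.

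Whether the genotype difference itself depended on age was tested by the interaction, the Het against WT difference at 12 months minus that at 3 months. It was fitted above 0 for 27 of the 31 genes and below 0 for 4, with a median of 0.49 against 0.08 over all genes, of which 56.3% were above 0. By edgeR 0 passed, as did 0% of all genes. At an unadjusted p under 0.05, 6 were above 0 (Zmat3, Apaf1, Plk2, Pmaip1, Btg2 and Mdm2, where 2.5% of all genes were) and 0 below 0 (3.26% of all genes). The 6 became 3 without Het 3M S14, where 1.57% of all genes were above 0. Of the 31 genes Zmat3 had the smallest p, at 1.01 ± 0.30 (edgeR adjusted p = 0.577). Apaf1 at 0.96 ± 0.32 and Plk2 at 1.20 ± 0.44 followed (edgeR adjusted p = 0.645 and 0.708). Mdm2 was at 0.96 ± 0.43 and Trp53 at 0.02 ± 0.37 (adjusted p = 0.84 and 0.999). DESeq2 called 0 members, where it called 0.239% of its genes, and voom called Btg2, Perp, Plk2, Plk3, Pmaip1 and Zmat3, where it called 6.3% of all genes. No difference between the genotype effects at the 2 ages was thus shown by the edgeR test. Other groups stood apart in the interaction too. All 13 myeloid markers were above 0, at a median of 2.38, as were 10 of 10 stress response genes, at 1.39, and 15 of 16 immediate-early genes, at 1.00. All 9 Schwann and neural crest markers, at -3.98, and all 16 proliferation genes, at -0.58, were below 0, as were 6 of 9 endothelial markers, at -0.36, and 8 of 14 mesenchymal markers, at -0.07. Without S9, S15 and WT 12M S6 the myeloid median was -0.60 and that of Schwann and neural crest markers -0.19, while that of the stress genes was 1.42, that of the immediate-early genes 0.80 and that of the 31 genes 0.63. The part of these groups in the p53 values was not tested.

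Cdkn1a, the cyclin-dependent kinase inhibitor p21 and the best known p53 target, was not one of the 31 genes and is given for comparison. It had 352.7, 463.5 and 814.5 CPM (lowest, median and highest) in Het 12M and 649.3, 686.3 and 311.4 CPM in Het 3M S8, S10 and S14, against 364.0, 386.9, 277.8 and 511.6 CPM in WT 12M S2, S6, S7 and S13 and 657.8, 547.3, 282.7 and 810.6 CPM in WT 3M S3, S4, S5 and S12. The groups overlapped throughout. Its log2 difference was 0.43 ± 0.33 in Het 12M against WT 12M, -0.07 ± 0.39 in Het 3M against WT 3M, -0.08 ± 0.36 in Het 12M against Het 3M and -0.58 ± 0.36 in WT 12M against WT 3M. By edgeR the adjusted p was 0.733, 1, 0.986 and 0.651 in that order.

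The rest of the pathway was read from further lists. Of 21 genes that act on p53, such as the damage kinases Atm and Chek2, 20 were tested, and of 30 further targets, Cdkn1a included, 28 were tested. By edgeR 0 of either list passed in any of the 5 comparisons. In Het 12M against WT 12M 9 of the 20 regulators and 16 of the 28 further targets were fitted higher, with medians of -0.003 and 0.07 beside the 0.35 of the 31 genes. In WT 12M against WT 3M 14 of 20 and 14 of 28 were fitted lower, with medians of -0.18 and -0.01 beside -0.42. At an unadjusted p under 0.05 there were 1 regulator and 2 further targets higher and 2 further targets lower in the first of these comparisons, where 3.44% of all genes were higher and 4.93% lower, and 1 further target higher and 2 lower in the second, where 4.67% were higher and 3.55% lower. DESeq2 called 1 further target as lower in Het 12M against WT 12M (0.723% of its genes called) and 1 as below 0 in the interaction (0.239%). Of the 48 genes voom called 1 in Het 12M against WT 12M, where it called 1.15% of all genes, and 5 in Het 3M against WT 3M, where it called 8.67%. It called 0 in Het 12M against Het 3M (0.00671% of all genes), 8 in WT 12M against WT 3M (10.1%) and 5 in the interaction (6.3%). Those with the smallest p at 12 months were both fitted lower, Steap3, a metalloreductase of the endosome, at -1.54 ± 0.38 and Trp53i11 at -1.48 ± 0.42 (edgeR adjusted p = 0.209 and 0.284). In Het 3M against WT 3M they were Trp63, a relative of Trp53 known from epithelia, at 1.71 ± 0.65 and Steap3 at 0.83 ± 0.45 (adjusted p of 1 for both). Steap3 was also at -2.37 ± 0.59 in the interaction and at 1.59 ± 0.43 in WT 12M against WT 3M (edgeR adjusted p = 0.498 and 0.481). In the interaction 16 of the 28 further targets were fitted above 0 and 12 below.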

How the data were processed

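RNA was sequenced from 17 cultures, and the authors deposited raw read counts per Entrez gene in 4 technical replicates of each (68 columns). Per the submitters' processing notes, reads were aligned to mm10 with Subread and counted with featureCounts. Versions, annotation, strand setting and the handling of multiply aligned reads are not given in the sources used here. Technical replicates differed by a chi-square per degree of freedom of 1.003 to 1.094, near counting error, and were summed. Between cultures it was at least 18.5, the lowest being Het 3M S8 and S10, which were kept as separate samples.

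The 27179 identifiers were matched to symbols through RefSeq (GRCm38.p6), 25275 with success, and the 1904 others held 0.573% of the counts. Exon lengths are from GENCODE on the same assembly. With R 4.3.3 and edgeR 4.0.16, 1 quasi-likelihood fit took all 17 cultures with a term per group, TMM scaling and filterByExpr, which kept 14897 genes. Tests were 2-sided, with p adjusted by Benjamini and Hochberg over those genes and a threshold of 0.05. The biological coefficient of variation was 0.512. A log2 difference is the group named first minus the other, ± SE, and p-values in the text are edgeR's unless another tool is named. Labelled sex was left out because sex-linked transcripts go against it in 3 WT 12M libraries and are mixed in the fourth, and a fit with it is an alternative, as are DESeq2 1.42.0, limma voom 3.58.1 with quality weights and those of the closing section. The edgeR script was tested on simulated data.

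The genes and lists were chosen with earlier results of these data known, so no set test was made. Log2 differences are given in each pairwise comparison for the 5 genes with the smallest p, Trp53 and Mdm2, and for the first 3, Trp53 and Mdm2 in the interaction. Other genes were added by role, some after their values were seen.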

Additional observations from a re-analysis of the deposited data

Results flagged for a closer look

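A culture far from the others of its group was looked for in the 31 genes by Dixon's ratio, in the 3 groups of 4 to 10 samples. Of 96 groups of values, which include those of further genes named in the text, 11 held such a culture. Chance gives about 1 in 20 for independent and normally distributed values. The ratio was taken on CPM without logarithms and the genes share cultures, so the 11 cannot be judged by that rate. The causes were not tested.

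Het 12M S15 accounted for 4 of them, all high. It had 415.9 CPM of Plk2 against at most 236.0 in the other Het 12M cultures, 84.6 CPM of Gadd45a against at most 32.7, 365.4 CPM of Bax against at most 167.3 and 1344 CPM of Phlda3 against at most 585.5. This culture also had the lowest sum of mesenchymal markers, 8969 CPM, and the lowest voom weight, 0.118. Het 12M S9, the culture with 40920 CPM of myeloid markers, had 320.5 CPM of Sesn1 against at most 57.8 in the others, and Het 12M S1 had 19.8 CPM of Ppm1d against at most 14.2.

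In WT 12M, S6, the culture with 1309 CPM of Schwann and neural crest markers, had 21.0 CPM of Plk3 against at most 6.79 in the others, and S13 had 34.6 CPM of Perp against at most 3.33. In WT 3M, S5 had 61.5 CPM of Bax against at least 135.9 in the others, S4 had 59.1 CPM of Tnfrsf10b against at least 75.6, and S12 had 79.3 CPM of Pmaip1 against at most 47.5.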

How the results depend on the processing

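Under edgeR no alternative scaling, filter, covariate or choice of samples called a member in any comparison. DESeq2 called 1 in Het 12M against WT 12M (0.723% of its genes called) and 2 in WT 12M against WT 3M (0.361%). Voom with quality weights called 4 in Het 12M against WT 12M (1.15% of all genes called) and 4 in Het 3M against WT 3M (8.67%). It called 13 in WT 12M against WT 3M (10.1%) and 6 in the interaction (6.3%). Its sample weights lay between 0.118 (S15) and 8.88 (S8). The median log2 difference in WT 12M against WT 3M moved to -0.63 with voom, -0.57 with the Y-linked term and -0.60 without S9, S15 and S6, and lay between -0.61 and -0.42 when each sample was left out in turn. That of the interaction moved to 0.63 without S9, S15 and S6. The medians of the other 3 comparisons moved by less than the spread between samples, that of Het 12M against Het 3M being 0.02 without S8. When 1 sample was left out, 4 to 11 members were higher at an unadjusted p under 0.05 in Het 12M against WT 12M. The 4 were found without WT 12M S7 (2.78% of all genes higher) and the 11 without Het 12M S9 (3.1%). In WT 12M against WT 3M 9 to 12 were lower, with 9 for instance without WT 3M S5 (2.07% of all genes lower). The 12 were found without Het 12M S15 (6.46%). In the interaction 3 to 8 were above 0, with 3 without Het 3M S14 (1.57% of all genes above 0) and 8 without Het 12M S16 (2.47%).

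For the 31 log2 differences of named genes, 826 of 863 alternative values kept direction and side of the threshold, 14 passed it and 23 changed sign. The 826 do not measure stability, because many fits left out a sample of a group outside the comparison, which hardly moves the value. Btg2 in Het 12M against WT 12M, for instance, was 1.374 without Het 3M S14 and 1.379 with it. The side of the threshold changed only with DESeq2 or voom, since no edgeR fit called a member. Trp53 changed sign most: at 12 months it was 0.052 with voom and -0.279 to 0.001 leaving out 1 sample, at 3 months -0.379 to 0.005, for age in WT -0.24 with voom, -0.036 without S9, S15 and S6 and -0.10 to 0.29 leaving out 1, and in the interaction 0 with library totals, -0.012 with the sex term and -0.16 to 0.24 leaving out 1. For age in Het, Gdf15 was -0.12 with voom and -0.28 without S9, S15 and S6, Gadd45a was -0.022 without them, and Mdm2 was 0.075 with the sex term and 0.09 with the Y-linked term. The causes were not tested.

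No paired analysis was possible because the sample numbers are unique to each culture and link nothing across groups. The lowest count of a member in any culture was 10, of Perp, and the next lowest gene, Ddb2, had at least 25, so counting error bears most on these. The smallest edgeR adjusted p of a member was 0.243 in the main fit, that of Btg2 in Het 12M against WT 12M. It was lower in some alternative edgeR fits, for instance 0.193 without Het 3M S14.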
